A study of Mus musculus with 9 samples.

Results

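Transcripts of 9 genes of catecholamine signalling were compared between the heart and the quadriceps muscle of sham-operated mice. The genes were 5 adrenergic receptors, Adrb1, Adrb3, Adra1a, Adra1b and Adra1d, and 4 adenylyl cyclases, Adcy2, Adcy5, Adcy6 and Adcy9. They were chosen by gene name from a table of 24537 gene names, in which they hold 15 of 35745 RefSeq transcript rows. The row with the highest mean count over the 6 libraries stands for its gene where nothing else is said. The mice, C57Bl6 in the series' design text and male C57Bl/6JCrl in the study's methods, had sham surgery at 8 weeks of age by the design text, and RNA was taken 12 weeks later. RNA sequencing libraries were made from 3 sham hearts and 3 sham quadriceps muscles. The heart libraries carry the treatment label control, and no transgene or drug is named for either tissue. The labels do not say which chambers a heart library holds or whether a heart and a muscle came from the same mouse. The tissues were therefore tested as independent groups. In edgeR, p-values set the difference between tissues against the spread between these libraries. TAC quadriceps, the other arm of the series, was not analysed here for these genes.

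Noradrenaline from sympathetic nerves and adrenaline from the adrenal gland bind adrenergic receptors, which are receptors of the cell membrane that act through G proteins. Beta receptors couple to the stimulatory G protein, which activates adenylyl cyclase. The cyclase makes cyclic AMP, and protein kinase A then phosphorylates calcium-handling and contractile proteins, which in the heart raises rate and force. Alpha1 receptors couple instead to Gq, which activates phospholipase C, releases inositol trisphosphate and diacylglycerol and so engages calcium release and protein kinase C. In skeletal muscle, beta agonists promote glycogen breakdown and muscle growth.

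The tissue labels fitted their markers. Summed RPKM (counts divided by transcript length and by the total of the library) of 10 cardiac muscle markers was 22841 to 23926 in the heart libraries and 54.9 to 133 in the quadriceps libraries. For 10 skeletal muscle fibre markers, of which Acta1 and Ckm are also made in heart, it was 1053 to 1223 in heart and 46552 to 54013 in quadriceps. The libraries held 23383452 to 38382751 counts. Heart libraries differed in the atrial light chain Myl7, with 2075, 164 and 3 counts. The quadriceps libraries differed in fat cell markers, which are given beside Adrb3. Since these are bulk tissues, fewer cells of a type and less RNA per cell cannot be told apart.

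All 9 genes passed the count filter, over 5 counts in 2 or more libraries, and the test. Adrb1, Adra1b and Adra1d passed the filter through the hearts alone, and Adrb3 through the muscles alone. For these members the filter already favoured the direction of the call. In edgeR's quasi-likelihood test, 6 members were lower in quadriceps than in heart (Adrb1, Adra1a, Adra1b, Adra1d, Adcy5 and Adcy6) and 3 were higher (Adrb3, Adcy2 and Adcy9), each with an adjusted p under 0.05. Of 14906 genes tested, with 1 row per gene, 33.9% were called lower and 32.1% higher by the same criterion. With the criterion of size (a log2 fold change beyond 2 with an unadjusted p under 0.05), 6 members were lower and 2 higher, Adcy9 being left out, beside 9.04% and 7.14% of all genes. On the scale of CPM, the count scaled to the TMM-normalized size of its library, the heart and quadriceps libraries did not overlap for any of the 9 members, as for 71.7% of all genes tested. The median log2 fold change was -3.63 over the members and -0.05 over all genes.

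**Figure D1:**
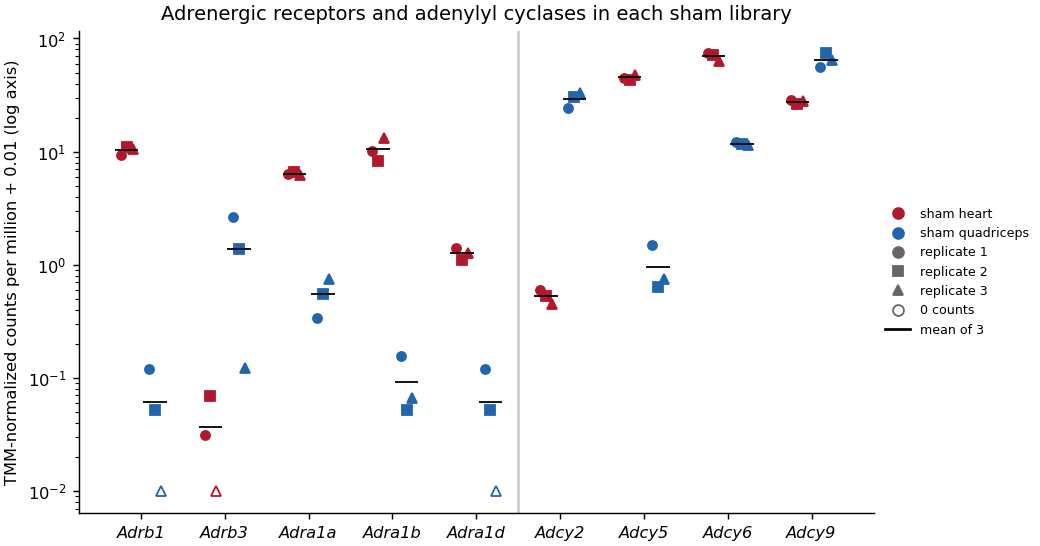
TMM-normalized CPM plus 0.01, on a log axis, of each member gene in the 3 sham heart (red) and 3 sham quadriceps (blue) libraries. The shape gives the replicate, open symbols are libraries with 0 counts and the black lines are the means of 3 libraries. The colours are apart for each gene, and the quadriceps values of Adrb3 spread most, from 0.113 to 2.65.

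The beta1 receptor gene Adrb1 encodes the main beta receptor of heart muscle cells. It lies on chromosome 19 (GRCm38, 56722199 to 56733113, plus strand), and its row NM_007419 is a transcript with 1 exon. Its counts were 446, 550 and 454 in the 3 hearts, against 3, 1 and 0 in the 3 muscles. All 3 hearts were high and all 3 muscles were at or near 0. The levels were 10.3 ± 0.82 CPM in heart and 0.0507 ± 0.0557 CPM in quadriceps (SD, n = 3). The counts summed over libraries gave a level 177-fold higher in heart, with a 95% exact interval of 69.0 to 651 that covers counting error only. In log2, the fold change of quadriceps minus heart was -7.39 ± 0.31 (SE; edgeR, adjusted p = 6.92e-08). Without quadriceps library 1 it was -8.52.

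For 5 of the 9 members a window from 250 bases before to 50 bases after a RefSeq transcript start was at hand (GRCm38.p6). The windows of Adrb1 and Adcy5, which were lower in quadriceps, and of Adcy2 and Adcy9, which were higher, are shown so that start regions with opposite changes can be set side by side. Each is written 5′ to 3′ on the gene's own strand. Capitals mark the GC box GGGCGG and the core TGACG of the cyclic AMP response element, on either strand.
Adrb1, chr19:56721867-56722166, plus strand: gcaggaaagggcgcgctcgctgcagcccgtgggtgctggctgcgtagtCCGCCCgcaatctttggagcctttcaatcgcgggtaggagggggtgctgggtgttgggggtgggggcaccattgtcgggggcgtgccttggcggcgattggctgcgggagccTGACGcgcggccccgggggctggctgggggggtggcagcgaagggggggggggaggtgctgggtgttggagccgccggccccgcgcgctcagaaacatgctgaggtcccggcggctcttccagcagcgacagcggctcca
Adcy5, chr16:35154614-35154913, plus strand: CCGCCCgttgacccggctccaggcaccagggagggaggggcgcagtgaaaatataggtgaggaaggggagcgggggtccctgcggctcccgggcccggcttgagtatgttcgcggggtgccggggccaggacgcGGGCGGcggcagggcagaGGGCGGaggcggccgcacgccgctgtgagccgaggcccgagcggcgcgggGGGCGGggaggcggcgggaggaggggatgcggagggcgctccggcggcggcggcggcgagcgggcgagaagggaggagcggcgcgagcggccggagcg
Adcy2, chr13:68999492-68999791, minus strand: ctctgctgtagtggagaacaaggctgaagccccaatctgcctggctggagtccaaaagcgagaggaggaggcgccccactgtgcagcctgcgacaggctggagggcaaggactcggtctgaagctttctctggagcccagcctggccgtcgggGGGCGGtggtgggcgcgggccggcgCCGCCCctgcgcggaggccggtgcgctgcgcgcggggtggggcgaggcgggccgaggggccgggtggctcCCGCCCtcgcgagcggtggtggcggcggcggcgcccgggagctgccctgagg
Adcy9, chr16:4420449-4420748, minus strand: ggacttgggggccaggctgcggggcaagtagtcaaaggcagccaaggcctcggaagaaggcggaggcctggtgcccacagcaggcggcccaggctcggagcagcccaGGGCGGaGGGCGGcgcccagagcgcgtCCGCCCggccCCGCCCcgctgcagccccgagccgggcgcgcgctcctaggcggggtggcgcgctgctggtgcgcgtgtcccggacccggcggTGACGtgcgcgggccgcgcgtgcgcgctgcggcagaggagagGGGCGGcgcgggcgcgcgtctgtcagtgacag
The 4 windows held 72.3%, 79%, 75% and 78.3% G and C, in that order, against a median of 52.7% over 32851 windows of this length. The GC box had 1, 4, 3 and 5 matches, and 35.7% of all windows hold at least 1. The core TGACG had 1 match each in Adrb1 and Adcy9, and 20.8% of all windows hold it. The E-box CANNTG, which 72.3% of all windows hold, had no match in the 4 windows. The muscle motif CATTCC, known as M-CAT, and the motif GATAA, each searched on both strands like the E-box, had no match there either, and 14.7% and 25.4% of all windows hold them. None of these motifs overlaps another by its letters in the sequences printed. Adra1b, the other member with windows at hand and lower in quadriceps, had windows at 2 starts that differed, 1 with 71.3% G and C and 2 GC boxes and 1 with 42.3% and no GC box.

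The alpha1 receptor genes were all lower in quadriceps. Adra1a, on chromosome 14 (66635251 to 66771168, plus strand), encodes the alpha1A receptor. The hearts held 302, 332 and 268 counts of its row NM_013461, and the muscles 9, 13 and 13. No muscle came near the lowest heart. In CPM the level was 6.39 ± 0.18 in heart and 0.536 ± 0.202 in quadriceps (SD, n = 3). This was a log2 fold change of -3.63 ± 0.22 (SE; edgeR, adjusted p = 7.47e-07), the nearest to 0 of the 4 receptors that were lower.

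Adra1a is the member with most transcript rows, 4 in number, and a read can count on several of them. The row NM_001271761 is a transcript of 3 exons that runs to the far end of the gene, whereas NM_013461 has 4 exons and ends at 66733329. The counts of NM_001271761 were 134, 147 and 105 in the hearts and 3, 3 and 2 in the muscles. Set against the counts of NM_013461, these were 42.6% ± 2.97 in heart and 23.9% ± 9.0 in quadriceps (SD, n = 3). The percentages of the 3 hearts lay above those of the 3 muscles, on 8 counts in all in quadriceps, and the two-sided exact permutation test gave p = 0.1, the smallest p that 3 against 3 libraries allow. The other rows, NM_001271759 and NM_001271760, had log2 fold changes of -3.65 and -3.47, beside -4.51 for NM_001271761. Set against NM_013461, NM_001271760 went the other way, at 86.8% ± 2.12 in heart and 97.4% ± 4.44 in quadriceps (exact permutation p = 0.1). NM_001271759 had 96.0% ± 1.25 and 93.7% ± 5.69 (exact permutation p = 0.5).

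Adra1b, on chromosome 11 (43774606 to 43901210, minus strand), encodes the alpha1B receptor. For its row NM_007416 the hearts gave 482, 417 and 566 counts and the muscles 4, 1 and 1. The hearts spread more than for Adrb1 and Adra1a, and every muscle was near 0. The levels were 10.5 ± 2.47 CPM and 0.0818 ± 0.057 CPM (SD, n = 3), a 119-fold higher level in heart with a counting interval of 54.7 to 326. Its log2 fold change was -6.86 ± 0.36 (SE; edgeR, adjusted p = 2.62e-07), and -7.65 without quadriceps library 1. NM_007416 is a transcript of 2 exons that starts inside the gene, and NM_001284381, of 5 exons, starts at the gene's 5′ end. Their quadriceps counts were identical, and their heart counts differed most in library 3, with 566 against 555, so the table does not tell the starts apart.

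Adra1d, on chromosome 2 (131545850 to 131562283, minus strand), encodes the alpha1D receptor, best known from arterial smooth muscle. In the hearts 67, 55 and 54 counts fell on its row NM_013460, and in the muscles 3, 1 and 0. It was the lowest of the 4 receptors in heart that were lower in quadriceps. The levels were 1.25 ± 0.16 CPM and 0.0507 ± 0.0557 CPM (SD, n = 3), a 21.5-fold higher level in heart with a counting interval of 8.25 to 79.8. The log2 fold change was -4.35 ± 0.48 (SE; edgeR, adjusted p = 3.73e-05), and it was -5.49 without quadriceps library 1. Among 10 smooth muscle and pericyte markers, 6 were lower and 1 was higher in quadriceps, with a median log2 fold change of -1.11; their part in the level of Adra1d was not tested.

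Adrb3 was the only receptor member higher in quadriceps, and its values differed widely between the muscles. It encodes the beta3 receptor, which drives fat breakdown and heat production in fat cells, and lies on chromosome 8 (27225776 to 27250616, minus strand). The muscles held 72, 33 and 2 counts of its row NM_013462, whereas the hearts held 1, 3 and 0. Quadriceps library 3 thus had no more counts than heart library 2, and the tissues are apart in CPM only through its smaller library. The levels were 0.0269 ± 0.0302 CPM in heart and 1.38 ± 1.27 CPM in quadriceps (SD, n = 3). The summed counts gave a level 54.8-fold higher in quadriceps, with a counting interval of 20.8 to 205. Its log2 fold change was 5.52 ± 1.03 (SE; edgeR, adjusted p = 0.00114), the largest SE of the 9 members. On log2 RPKM in limma the call held with a pseudocount of 0.1 and was lost with 0.5 (0.71, adjusted p = 0.0563) and 1 (0.42, adjusted p = 0.079).

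In CPM, 8 of the 10 adipocyte markers ranked the quadriceps libraries as Adrb3 did, with library 1 highest and library 3 lowest, and Plin4 and Cidea did not. Adiponectin (Adipoq), a hormone of fat cells, reached 1183, 425 and 94 counts in the muscles, beside 26, 13 and 7 in the hearts. Resistin (Retn) had 393, 201 and 41 counts in quadriceps, Cidec, a lipid droplet protein, had 457, 148 and 58, and Plin1, which coats the fat droplet, had 119, 43 and 9. Plin4 was highest in library 2, with 2483, 2773 and 1259 counts, and Cidea lowest there, with 151, 21 and 24. Of the muscles, library 1 also held the most counts of Adrb1, Adra1b, Adra1d, Adcy5 and Adcy6, and in CPM Adcy5 was lowest in library 2. Ucp1, the heat-producing uncoupling protein of brown fat, had 65, 1 and 0 counts in quadriceps and 0 counts in every heart. Of the 10 genes of the adipocyte list, 9 were tested, 6 were higher and 1, Cidea, was lower in quadriceps. The list's summed RPKM ranged from 504 to 653 in heart and from 235 to 604 in quadriceps, and it was led in both by Fabp4, a fatty acid binding protein that is also made in capillaries. Per 100 counts of Adipoq, Adrb3 had 6.09, 7.76 and 2.13 counts in the quadriceps libraries. The part of fat cells in the Adrb3 counts was not tested. Leaving out heart library 2 gave a log2 fold change of 6.60, and leaving out quadriceps library 1, for which the count filter had to be dropped, gave 4.65 (adjusted p = 0.00142).

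**Figure D2:**
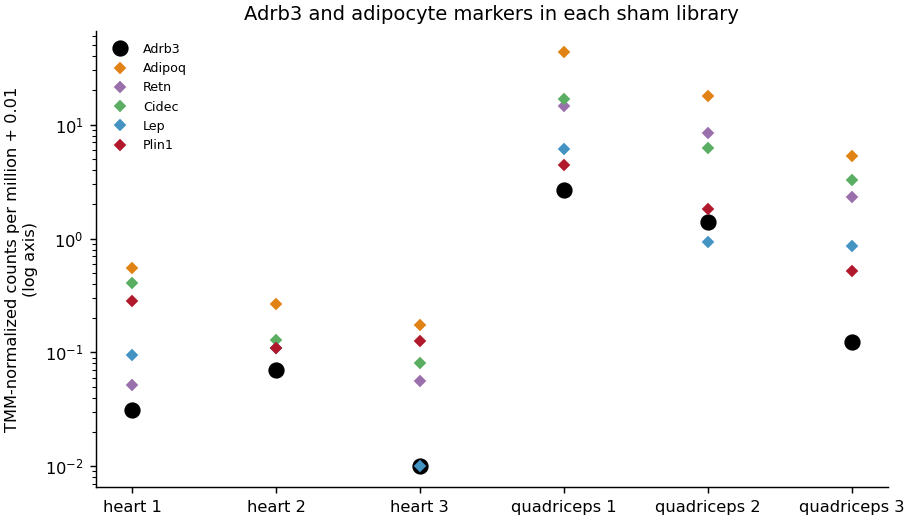
TMM-normalized CPM plus 0.01, on a log axis, of Adrb3 (large black circles) and of 5 of the 10 adipocyte markers (small diamonds), chosen after their values were seen, in each sham library. In quadriceps, Adrb3 and the markers drawn are highest in library 1 and lowest in library 3, and the 3 hearts lie below the 3 muscles; of the markers not drawn, Plin4 and Cidea rank the muscles otherwise, and Cidea is lower in quadriceps.

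Among the cyclases, Adcy5 and Adcy6 are the known main isoforms of heart muscle cells, and both are inhibited by Gi and by calcium. Adcy5, on chromosome 16 (35154877 to 35305738, plus strand), is a gene of 150862 bases, and its row NM_001012765 has 21 exons. Counts of Adcy5 were 2142, 2169 and 2054 in the hearts and 40, 15 and 13 in the muscles. The hearts lay close together, and quadriceps library 1 was the highest of the muscles. The levels were 45.3 ± 2.38 CPM and 0.944 ± 0.459 CPM (SD, n = 3). Adcy5 thus had a log2 fold change of -5.53 ± 0.23 (SE; edgeR, adjusted p = 6.79e-08).

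Adcy6, on chromosome 15 (98589973 to 98610076, minus strand), is the closest relative of Adcy5 and spans 20104 bases, with 22 exons in its row NM_007405. The hearts held 3527, 3597 and 2711 counts of it and the muscles 331, 277 and 204. It was lower in every muscle but kept at least 204 counts there. The levels were 69.5 ± 5.71 CPM and 11.8 ± 0.36 CPM (SD, n = 3). The log2 fold change was -2.56 ± 0.11 (SE; edgeR, adjusted p = 6.06e-08), nearer to 0 than that of Adcy5. The log2 ratio of Adcy5 to Adcy6 in reads per kilobase was -0.36 ± 0.19 in heart and -3.45 ± 0.59 in quadriceps (SD, n = 3). No library of one tissue reached those of the other, with an exact permutation p = 0.1, the smallest possible.

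Adcy2, on chromosome 13 (68620043 to 68999541, minus strand), encodes a cyclase that G protein beta-gamma subunits stimulate. It is the longest of the member genes, 379499 bases, with 25 exons in its row NM_153534. Adcy2 reached 664, 722 and 582 counts in the muscles, beside 28, 26 and 19 in the hearts. The muscles were high alike, and no heart came near them. The levels were 0.516 ± 0.0727 CPM and 29.2 ± 4.33 CPM (SD, n = 3). The test gave a log2 fold change of 5.80 ± 0.18 (SE; edgeR, adjusted p = 8.54e-09), the smallest adjusted p of the 9 members.

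Adcy9, on chromosome 16 (4287529 to 4420498, minus strand), encodes the cyclase that is least sensitive to forskolin, the plant compound that activates the other membrane cyclases. For its row NM_009624 the hearts gave 1352, 1333 and 1211 counts, and the muscles gave 1526, 1775 and 1135. The raw counts overlapped, and in CPM, after scaling, they did not. The levels were 27.7 ± 1.04 CPM and 64.8 ± 9.06 CPM (SD, n = 3). The test gave a log2 fold change of 1.23 ± 0.12 (SE; edgeR, adjusted p = 1.54e-05). With library totals in place of TMM it was 0.47 (adjusted p = 0.00183), where the median of all genes was -0.80. The second row of Adcy9, NM_001291910, had a log2 fold change of 1.23 as well.

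**Figure D3:**
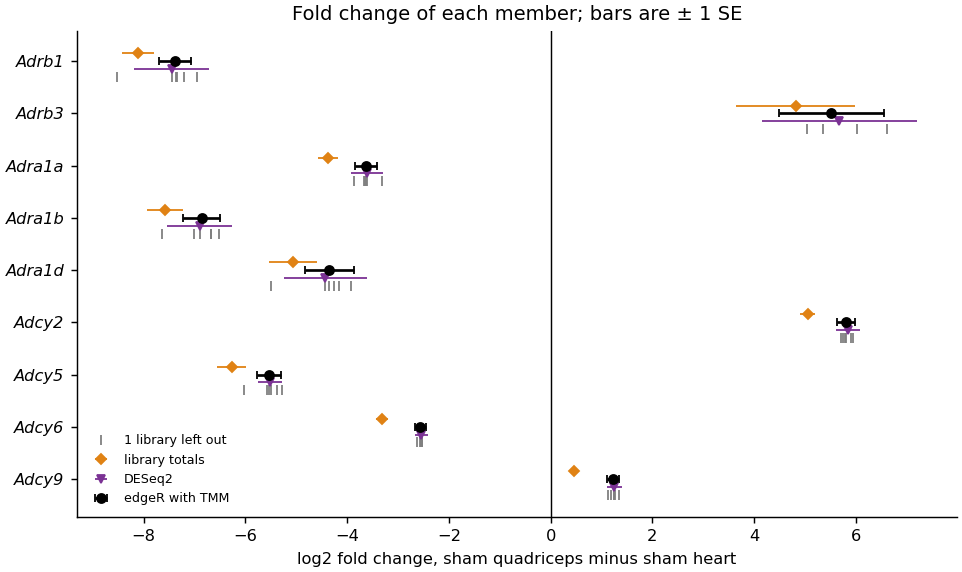
The log2 fold change of each member, sham quadriceps minus sham heart, with edgeR and TMM (black circles), edgeR with library totals (orange diamonds) and DESeq2 (purple triangles), each with its SE as a bar. Grey ticks are fits with 1 library left out; Adcy9, the member nearest 0, runs from 0.47 with library totals to 1.35 with a library left out.

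The levels of the members within a tissue were compared per length, in RPKM. In heart the cyclases came first, with Adcy6 at 15.04 ± 1.21 RPKM and Adcy5 at 11.7 ± 0.58 RPKM (SD, n = 3), and their libraries did not overlap. Adrb1 followed at 5.37 ± 0.48 RPKM, then Adcy9 at 4.59 ± 0.13 RPKM and Adra1b at 4.27 ± 0.99 RPKM. Adcy9 and Adra1b overlapped, and so did Adra1b and Adrb1. Adra1a at 1.94 ± 0.07 RPKM, Adra1d at 0.680 ± 0.079 RPKM, Adcy2 at 0.160 ± 0.022 RPKM and Adrb3 at 0.0126 ± 0.0142 RPKM came last, each below the one before it in every library.

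In quadriceps the order was another. Adcy9 led at 6.35 ± 0.47 RPKM, Adcy2 followed at 5.35 ± 0.55 RPKM and Adcy6 at 1.51 ± 0.15 RPKM (SD, n = 3), and these 3 did not overlap. Every receptor member was under 1 RPKM in every quadriceps library. Adrb3, at 0.393 ± 0.381 RPKM, overlapped with Adcy5 at 0.148 ± 0.083 RPKM, and Adcy5 with Adra1a at 0.0957 ± 0.0329 RPKM. Adra1b, Adra1d and Adrb1, at 0.0204, 0.017 and 0.0164 RPKM, overlapped with each other and rest on 6, 4 and 4 counts.

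As shares of the summed reads per kilobase of their family, the members traded places. Only the 5 receptors and 4 cyclases named above enter these sums, and other receptors and cyclases are left out. In heart Adrb1 made up 43.9% ± 4.27 and Adra1b 34.5% ± 5.53 of the 5 receptors (SD, n = 3). In quadriceps they made up 2.11% ± 1.94 and 4.52% ± 2.9. Adrb3 made up 0.107% ± 0.12 of the receptors in heart and 81.6%, 73.9% and 17.6% in the 3 muscles. Adra1a, at 15.9% ± 1.6 in heart, held 6.66%, 19.0% and 74.7% in the muscles. In quadriceps library 3 Adra1a thus took the place that Adrb3 held in the other muscles, and the mean share of Adra1a, quadriceps minus heart, was 17.5 percentage points with that library and -3.08 without it.

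The shares of the 4 cyclases spread little. Adcy6 and Adcy5 made up 47.8% ± 2.98 and 37.1% ± 2.51 in heart and 11.4% ± 1.62 and 1.12% ± 0.68 in quadriceps (SD, n = 3). Adcy9 and Adcy2 made up 14.6% ± 0.54 and 0.507% ± 0.0581 in heart and 47.5% ± 2.75 and 40.0% ± 2.95 in quadriceps. The pair of cyclases that held most of the family's reads in one tissue held the smaller part in the other, in every library. Over the 9 shares and 2 ratios compared, the exact permutation p was 0.1 for all but the share of Adra1a (0.7), and 0.11 after Benjamini-Hochberg adjustment; 3 against 3 libraries cannot go below 0.1. The log2 ratio of Adrb1 to Adra1a was 1.46 ± 0.11 in heart and -2.34 ± 1.66 in quadriceps.

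**Figure D4:**
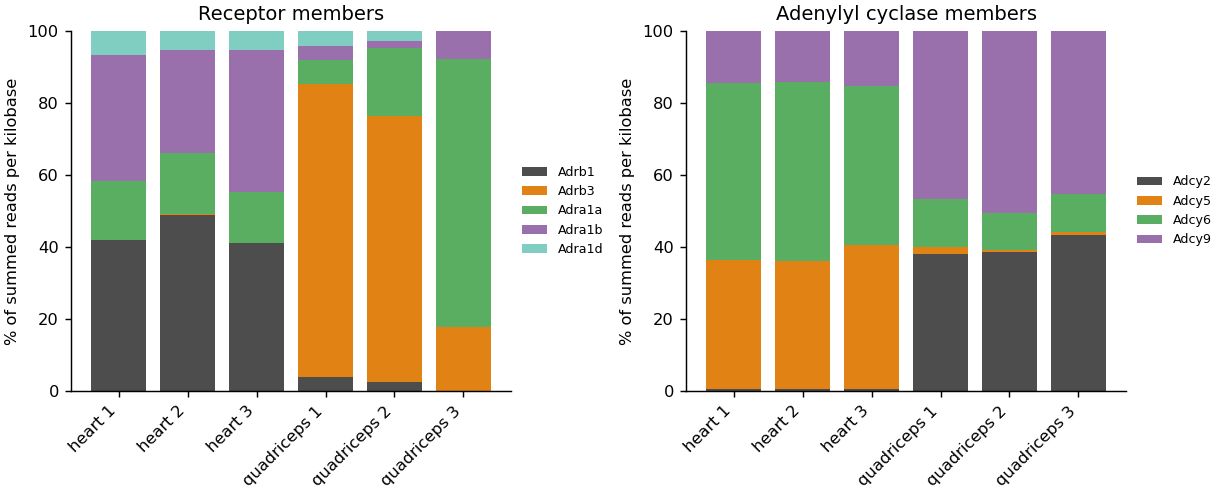
Share of each member in the summed reads per kilobase of the 5 receptors (left) and the 4 adenylyl cyclases (right), in percent, 1 bar per sham library. Adrb1 and Adra1b fill most of the heart bars and Adrb3 or Adra1a the quadriceps bars, while Adcy5 and Adcy6 give way to Adcy2 and Adcy9.

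Of the alpha2 receptor genes, Adra2b and Adra2c had log2 fold changes of 0.85 and 0.64 that did not pass (adjusted p = 0.118 and 0.484), and Adra2a missed the filter. Of the 6 other adenylyl cyclases, 5 were tested and all 5 were lower in quadriceps, beside 33.9% of all genes. The extremes were Adcy8 at -2.52 on 26 and 2 summed counts and Adcy1 at -1.51. Adcy8 passed the count filter through the hearts alone, which already favoured the direction of its call. The 190, 106 and 46 heart counts of Adcy1 ranked in the order of Myl7. The libraries of Adcy1 overlapped, with 1.07 CPM in heart library 3 and 1.25 CPM in quadriceps library 1. Adcy2 and Adcy9 were thus the only adenylyl cyclases tested that were higher in quadriceps.

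Of 128 listed genes around the receptors and cyclases in the table, 117 were tested, 22 were higher and 67 lower in quadriceps. Of all genes tested, 33.9% were called lower and 32.1% higher, and the counts of each list below stand beside these shares. The 117 had a median log2 fold change of -0.81, beside -0.05 over all genes. With library totals 13 were higher and 91 lower, beside 2030 and 9242 of all genes in place of 4783 and 5049, and 4 of the 22 changed sign: Gnas, Prkacb, Akap8 and Prkcd. The 67 lower genes include Pln, Ryr2 and Tnni3, which are also among the cardiac muscle markers used above to check the labels. Of 24 G protein subunits, 15 were lower and 3 higher. Gnai2, of the inhibitory Gi protein, had a log2 fold change of -1.78, and Gnaq, of Gq, had -0.73. The extremes were Gnb3 (-3.53) and Gna12 (-3.12), and Gng5 (2.73) and Gng7 (0.77, and 0.03 with library totals). Of 14 receptor kinases, arrestins and RGS proteins, 9 were lower and 5 did not pass. The extremes were Rgs6 (-4.99), which damps Gi signals, and Rgs3 (-2.21), and Rgs6 passed the count filter through the hearts alone. The heart counts of Rgs6, 363, 314 and 135, also ranked in the order of Myl7, as did those of Adcy2, Pde1c and Pde4d. The share of all genes in this order was not counted, and a link to Myl7 was not tested.

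Genes that break down cyclic AMP or cyclic GMP, or that respond to cyclic AMP, changed in both directions. Of 17 phosphodiesterases of cyclic AMP, cyclic GMP or both, 5 were lower and 5 higher. This was close to the shares of all genes, 33.9% and 32.1%. Pde1c fell from 2646, 2520 and 1867 counts in the hearts to 11, 11 and 12 in the muscles. Pde3a, the target of heart failure drugs such as milrinone, fell from 1184, 1512 and 1005 to 28, 11 and 15. Their log2 fold changes were -6.63 ± 0.19 and -5.05 ± 0.22. Pde4d rose from 887, 704 and 549 counts to 4405, 3626 and 2160, a log2 fold change of 3.26 ± 0.17, and Pde7b had 2.21 ± 0.13.

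Of 14 protein kinase A, Epac and Popeye genes, 8 were lower and 5 higher, beside 33.9% and 32.1% of all genes. Rapgef4, which encodes the cyclic AMP sensor Epac2, and Popdc2 had log2 fold changes of -2.69 and -2.53. Pkia, an inhibitor of protein kinase A, and its regulatory subunit Prkar2b had 2.20 and 2.18. Prkar2b, with 237, 67 and 24 counts in the muscles, ranked them as Adipoq did. Its log2 fold change with library totals was 1.47 and did not pass (edgeR, adjusted p = 0.0639). Of 11 A-kinase anchoring proteins, 8 were lower, led by Akap12 (-2.58) and Akap5 (-1.87), and 1, Akap8 (0.46), was higher.

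Downstream of alpha1 receptors, 7 of 11 effectors were lower and 2 higher, beside 33.9% and 32.1% of all genes. Plcb2 and Itpr2 had log2 fold changes of -3.31 and -1.70, and Prkca, a protein kinase C, had 2.37. Plcb2 passed the count filter through the hearts alone. Prkcd had 0.63, and -0.14 with library totals. Of 10 protein kinase A substrates known from the heart, 6 were lower and 2 were higher. Mybpc3 and Ryr2, with 10 and 6 summed counts in quadriceps, led the falls and passed the count filter through the hearts alone. This list was picked for the heart and shares Pln, Ryr2 and Tnni3 with the cardiac muscle markers, so their falls are no separate result. The 2 higher were Ppp1r1a (5.18 ± 0.22), an inhibitor of protein phosphatase 1, and Crem (1.11 ± 0.13). Of 8 genes of catecholamine synthesis and uptake, 4 were lower and 3 higher, beside the same 33.9% and 32.1%. Dbh, which turns dopamine into noradrenaline, was counted 260, 216 and 227 times in the hearts and 0 times in every muscle. It thus passed the count filter through the hearts alone. Its level in heart was at least 114-fold higher against a floor of 3 counts over the group. Ddc had -3.84, while Slc6a2, the noradrenaline transporter, had 2.53 on 7 and 21 summed counts and Maoa 1.78. Of the 3 that were higher, only Maoa kept its call with library totals (1.04, edgeR, adjusted p = 0.000607). Slc6a2 then had 1.81 (edgeR, adjusted p = 0.0509). Th, which starts the synthesis, had 0 counts in all 6 libraries.

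**Figure D5:**
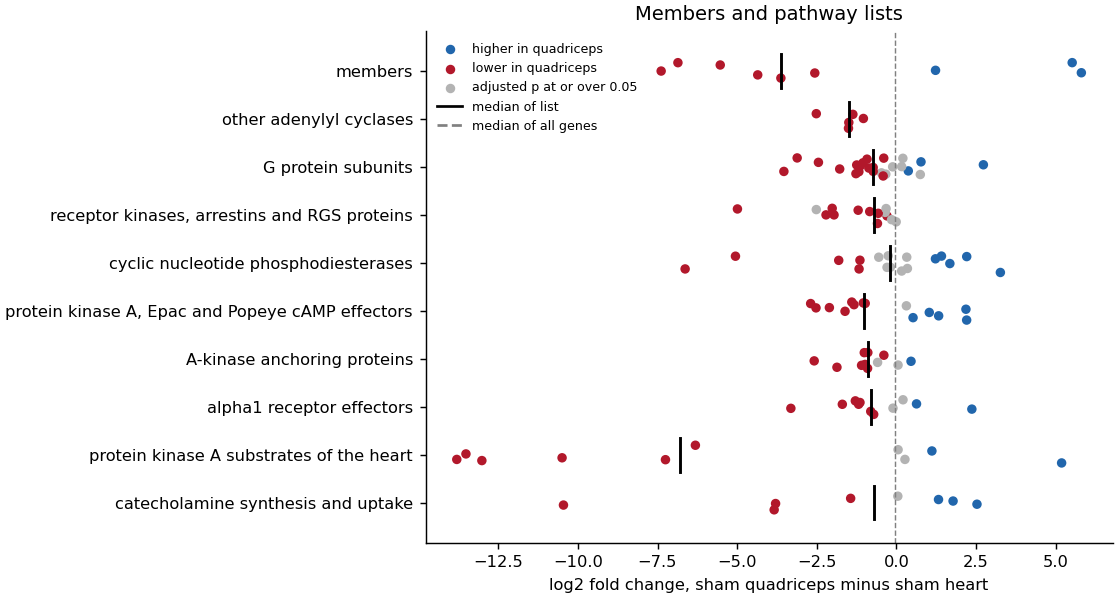
The log2 fold change, sham quadriceps minus sham heart, of the 9 members and of each tested gene in 9 of the lists of the pathway. Points are blue or red where the adjusted p was under 0.05 and grey otherwise, black bars are list medians and the dashed line is the median of all genes, -0.05. The members spread to both sides, and the 9 list medians drawn lie left of the dashed line. The list of protein kinase A substrates was picked for the heart and shares Pln, Ryr2 and Tnni3 with the cardiac muscle markers. The tenth list, other adrenergic receptors, is not drawn, and its median of 0.85 lies to the right.

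The genes whose RPKM values lay closest to those of a member over the 6 libraries, as the Euclidean distance of log2(RPKM + 0.5), came from many families. Gja3, a connexin, and Kcnd2, a potassium channel subunit, were closest to Adrb1, at 0.35 and 0.36. Ces1f and Alb were closest to Adrb3 (0.41 and 0.42). For the alpha1 receptors they were Ephb3 for Adra1a (0.25), Gal3st3 and Cryba4 for Adra1b (0.24 and 0.30), and Kif6 and Tchh for Adra1d (0.12 and 0.16). For the cyclases they were the host gene of a muscle microRNA, Mir1a-1hg, and Eya1 for Adcy2 (0.37 and 0.45), Pcdh7 and Efnb3 for Adcy5 (0.40 and 0.48), Htra3 and Crtap for Adcy6 (0.30 and 0.37), and Rnf126 and Cnot11 for Adcy9 (0.13 and 0.15). None of the 10 pathway lists holds any of these genes.

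Gene models on the opposite strand overlap Adrb3, Adra1d, Adcy2, Adcy5 and Adcy6, and others on the same strand overlap Adcy2, Adcy5 and Adcy9. The sources used here do not give the strand setting of the counts, so reads of such models could count on these members.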

How the data were processed

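RNA sequencing libraries of 3 sham hearts and 3 sham quadriceps muscles were used. The authors made them from total RNA with a ScriptSeq kit. Per the submitters' processing notes and the study's methods, reads were trimmed with Trim Galore, aligned with STAR to mm10 and counted on RefSeq transcripts with Rsubread; versions and the strand setting are not given in the sources used here. The authors deposited raw counts per transcript, transcript lengths, and RPKM values, in which each count was found to be scaled by length and library total. Their own fold changes, p-values and other test statistics in the table were not used. No column of a single library was left unmatched (0).

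For the test, a row needed over 5 counts in 2 or more libraries, which left 24280 rows. The tool was edgeR 4.0.16, run in R 4.3.3 (TMM, quasi-likelihood test, Benjamini-Hochberg adjustment over all rows tested). Fold changes are quadriceps minus heart. CPM values use TMM-scaled library sizes; 1 count is worth 0.0199 to 0.0565 CPM, which limits the precision of the low receptors. Folds on few counts carry 95% exact binomial intervals. Ratios within a library add 0.5 counts, and shares were compared with exact two-sided permutation tests. Alternatives were library totals, DESeq2 1.42.0 and its size factors, other count filters, limma 3.58.1 on log2 RPKM with pseudocounts of 0.5, 1 and 0.1, 1 row per gene, other thresholds, a replicate block and leaving out each library; 1 pair of fits for Adrb3 was added after the data were seen.

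All members are named; of each pathway list, the 2 largest rises and 2 largest falls among the calls, and of each member the 2 genes nearest in RPKM. Adra2a, Adra2b, Adra2c, Gnai2, Gnaq, Gnas, Prkacb and Th were named after their values were seen. Some genes that this rule names are not reported here. The members and lists were chosen with earlier results of these data known. The procedure was tested on simulated data. Positions and exons are from GENCODE vM21, windows at starts from RefSeq, and other calculations used Python 3.11.15 with scipy 1.17.1. Replicate libraries differed by more than sampling noise (chi-square per degree of freedom at least 7.41 between hearts and at least 34.2 between muscles), so none was merged for the tests. Counts were summed over the libraries of a tissue for the folds with exact intervals, and those intervals leave this spread out.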

Additional observations from a re-analysis of the deposited data

How the results depend on the processing

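The 9 fold changes kept their direction in every alternative fit, and 8 of them stayed past the threshold wherever they were tested. Adrb3 did not: on log2 RPKM in limma its log2 fold change was 0.71 with a pseudocount of 0.5 and 0.42 with 1, with adjusted p-values of 0.0563 and 0.079. With at least 10 counts in every library, 2 members were lower and 2 higher, since the 5 receptors fell out of the test. Library totals gave 13 in place of 22 pathway genes higher in quadriceps, and for all genes 2030 higher and 9242 lower; limma on RPKM gave 1922 to 1994 higher and 8995 to 9335 lower. Neither uses the TMM factors, which were 1.29 to 1.31 in heart and 0.73 to 0.83 in quadriceps. The 20 highest rows held 19.0% to 19.6% of the counts in heart libraries and 28.9% to 34.0% in quadriceps libraries. Why the factors differed between the tissues was not tested. Leaving out 1 library, the difference in the Adra1a share ran from -3.08 to 31.0 percentage points. Adrb3 missed the count filter without quadriceps library 1 or 2, and with the filter dropped its log2 fold changes were 4.65 and 5.52.

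The labels do not pair hearts and muscles, so libraries of the same number were not treated as pairs. Their deviations from the tissue means were not shared (r = 0.0234, -0.0969 and -0.00928). This cannot show whether they share a mouse, since different tissues of 1 mouse need not deviate alike. With a replicate block the members' calls stayed at 3 higher and 6 lower, and those of all genes were 4592 and 4938 beside 4783 and 5049; the log2 fold change of Adrb3 was 5.45 and that of Adcy9 1.22. The depth limits Adrb1, Adra1b and Adra1d in quadriceps and Adrb3 in heart, where 4 to 6 counts over 3 libraries set the level.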
